A study of Mus musculus with 2 samples.

Results

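IGHV1-9 is a heavy-chain variable gene of the mouse IGHV1 family. It was followed here in B cells of Peyer's patches, lymphoid tissue in the wall of the small intestine, in 109 cells of a Cre+ library and 56 cells of a Cre- library, 165 of 6241 cells in all. A cell was a barcode with exactly 1 productive heavy-chain CDR3 sequence, and its members were the cells whose heavy chain was assigned to IGHV1-9. The 27 Cre+ cells that joined IGHV1-9 to IGHJ2 and carried the IgG1 constant gene were kept apart from the other IGHV1-9 cells, 82 in the Cre+ library and 56 in the Cre- library. The Cre- library held 0 IGHJ2 IgG1 cells. The gene was selected on its share of cells in the 2 libraries and on this IgG1 group, so both are given as descriptions, with no test.

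The mice of the Cre+ library were H2-Ab1 fl/fl and carried Villin:Cre, in which the Villin promoter drives Cre recombinase in the epithelium of the gut and removes the floxed gene of the MHC class II beta chain there. Those of the Cre- library were H2-Ab1 fl/fl and lacked Cre, so every mouse carried the floxed alleles. All mice were adult females, and 4 mice per genotype were pooled after magnetic enrichment of cells bearing CD45, a marker of leukocytes. There was therefore 1 library per genotype: no difference between genotypes has a replicate check, and genotype cannot be told apart from the mice, the pool or the library. Intervals on shares are exact Clopper-Pearson 95% intervals that cover counting error only. Genotypes follow the sample labels. The series' design text gives Cre- for both groups, and H2-Ab1 was not measured in these files.

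The Cre+ library held 3294 cells from 12300 contigs and 355258 unique molecular identifiers (UMIs), and the Cre- library 2947 cells from 10108 contigs and 355985 UMIs. A productive light chain was found with 81 of 82 other IGHV1-9 cells in the Cre+ library and 55 of 56 in the Cre- library, and with all 27 IGHJ2 IgG1 cells. Contigs of T cell receptor genes lay in 143 Cre+ and 78 Cre- barcodes, none of them productive, and touched 5 Cre+ and 1 Cre- IGHV1-9 cells. The libraries had 10 barcodes in common. Of these, 1 belonged to an IGHV1-9 cell, an IGHJ2 IgG1 cell with 3 heavy-chain UMIs whose Cre- namesake carried another V gene.

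A heavy chain is assembled by joining a V, a D and a J gene, and the join, with the bases lost and added at its borders, makes up the CDR3, the loop that differs most between antibodies. Cells that share the V gene, the J gene and nearly the same CDR3 are commonly descendants of a single B cell. A naive B cell makes IgM and IgD; class switching in germinal centres, which Peyer's patches keep up under gut antigen, replaces these with IgG, IgA or IgE while the V region is kept, and somatic mutation changes single bases of that region. In the RefSeq annotation of GRCm38.p6, Ighv1-9 is a V segment at chr12:114583569-114583862, Ighd1-1 a D segment at chr12:113482170-113482192, Ighj2 a J segment at chr12:113429468-113429515 and Ighg1 a constant region at chr12:113326541-113330523.

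All 27 IGHJ2 IgG1 cells fell into a single lineage, defined as cells of a library with the same V gene, J gene and CDR3 length linked by at least 85% nucleotide identity. A further 2 Cre+ cells with its most common CDR3 had no constant gene called and count among the 82, so the lineage held 29 cells. Its heavy-chain CDR3 had 14 residues and 4 nucleotide forms. They are shown because they are the evidence that these cells are related; capitals mark the base that differs from the most common form, and positions count from 1 at the first base of the CDR3.
Most common form: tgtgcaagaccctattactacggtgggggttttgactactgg
Serine form: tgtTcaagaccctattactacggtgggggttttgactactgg
Silent form: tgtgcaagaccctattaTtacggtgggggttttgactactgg
Asparagine form: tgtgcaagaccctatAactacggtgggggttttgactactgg

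The most common form, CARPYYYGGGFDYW, was read in 16 cells, 14 with IgG1 and 2 with no constant gene called. The serine form, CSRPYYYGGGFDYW, was read in 10 cells and differs by G4T in codon 2. The silent form was read in 2 cells and differs by C18T in codon 6. The asparagine form, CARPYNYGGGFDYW, was read in 1 cell and differs by T16A in codon 6. The serine form lies in the part of the CDR3 that the V gene encodes. Of 127 IGHV1-9 cells of both libraries with IgM or IgD, called unswitched below, 124 had alanine at residue 2, 2 had valine, 1 had cysteine and 0 had serine. The nucleotides TGTGCAAGA, with which the most common form starts, opened the CDR3 of 104 of these 127 cells.

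All 29 cells were assigned the D gene IGHD1-1. A stretch of 11 bases at positions 14 to 24 of the CDR3, in capitals below, also occurs in 585 of the 1732 unswitched IGHD1-1 cells of both libraries (33.8%).
Stretch shared with IGHD1-1 cells: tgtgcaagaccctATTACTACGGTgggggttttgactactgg

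The light chain of the lineage joined IGKV1-110 (chr6:68270527-68271265) to IGKJ4 (chr6:70723548-70723585), and all 29 cells carried the same 33 bases of light-chain CDR3. It was the light chain with the most UMIs in 28 of them; the remaining cell had more UMIs of an IGKV6-15 chain with the CDR3 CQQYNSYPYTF. The lineage's light-chain CDR3 is shown beside the form found in 28 of 29 unswitched cells of the same V gene, J gene and CDR3 length. Capitals mark the bases that differ.
Lineage light chain, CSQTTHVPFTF: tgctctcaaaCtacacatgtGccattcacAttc
Usual IGKV1-110 IGKJ4 light chain, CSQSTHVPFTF: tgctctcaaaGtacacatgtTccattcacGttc

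Counted from the first base of the light-chain CDR3, with the usual form's base first, the differences are G11C in codon 4, T21G in codon 7 and G30A in codon 10. Only G11C changes the residue, from serine to threonine. None of the 3 lineage bases was found at its position in 193 unswitched IGKV1-110 cells. Counted from the end of the CDR3, the lineage base at G30A was found in 0 of 643 unswitched IGKJ4 cells, that at G11C in 1 and that at T21G in 62. The light chain thus carried 3 differences shared by every cell of the lineage, whereas the heavy-chain differences G4T, C18T and T16A each marked a subset.

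The lineage was found in the Cre+ library alone. Its heavy-chain CDR3 was present in 35 Cre+ and 0 Cre- barcodes, and its light-chain CDR3 in 39 Cre+ and 0 Cre- barcodes. The clonotype counts deposited for the Cre+ library spread the 35 barcodes over 11 clonotypes, the largest with 15 barcodes. What sets these clonotypes apart was not tested. Among heavy chains of the same CDR3 length, the closest IGHV1-9 IGHJ2 chain outside the lineage, of only 2 such chains, was a Cre- IgM chain, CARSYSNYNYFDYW, with 14 differences (66.7% identity). Over any J gene, the closest of 18 IGHV1-9 chains was a Cre+ IgD chain with IGHJ3, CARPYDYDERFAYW, with 11 differences (73.8%). Over all V genes, 951 chains had that length, and the closest was a Cre+ IgG1 chain of IGHV1-72 with IGHJ2, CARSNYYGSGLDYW, with 6 differences (85.7%). No IgM or IgD cell of the lineage was found among the cells.

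The 27 IgG1 cells had 2 to 45 heavy-chain UMIs with a median of 15 and quartiles of 8 and 21.5, and 4 to 135 light-chain UMIs with a median of 43. The most common form ranged over 2 to 36 heavy-chain UMIs and the serine form over 3 to 45, with the same median of 16.5. The 2 cells of the silent form had 5 and 12 heavy-chain UMIs, and the cell of the asparagine form had 2. The 2 cells with no constant gene called had 2 and 3. The forms read in 10 or more cells therefore overlapped over nearly their whole range, and the asparagine form rests on 2 UMIs of 1 cell.

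**Figure D1:**
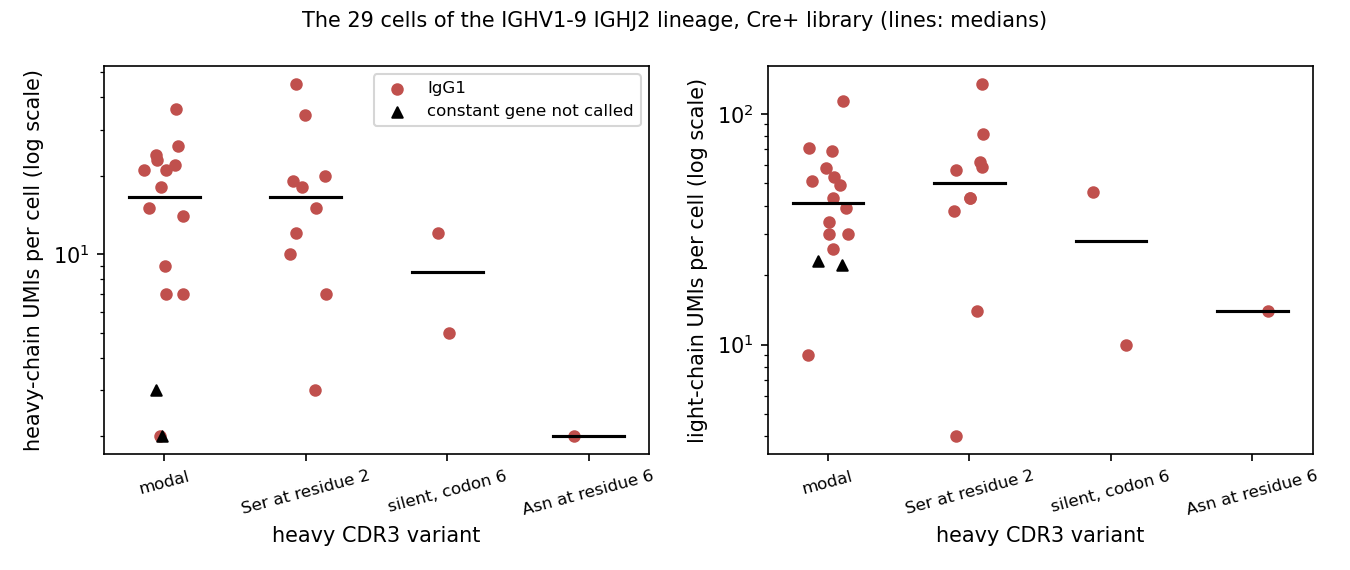
UMIs of the heavy chain (left) and of the main light chain (right) in each of the 29 lineage cells of the Cre+ library, by form of the heavy-chain CDR3, on log axes. Lines are medians; the most common form (16 cells) and the serine form (10 cells) have the same heavy-chain median, 16.5.

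The IGHV1-9 IgG1 cells had a median of 15 heavy-chain UMIs, against 15 in the 27 IgG1 cells of other V genes in Cre+ and 12.5 in the 22 in Cre-. Light-chain UMIs differed more: the IGHV1-9 IgG1 cells had a median of 43 (quartiles 30 and 58.5), against 63 in Cre+ (35.5 and 127.5) and 67 in Cre- (44 and 96) for IgG1 cells of other V genes, with ranges that overlapped. Unswitched cells of other V genes had medians of 8 heavy-chain UMIs in the Cre+ library and 9 in the Cre- library. Their light-chain medians were 29 in Cre+ and 32 in Cre-. In the J part of the heavy-chain CDR3, taken as the 9 bases before its last codon, the 4 forms of the lineage are alike and match the most common sequence of IGHJ2 in unswitched cells. Since the cells share 1 rearrangement, this is a single observation and not a share of 29 cells.

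Over all cells, 109 of 3294 Cre+ cells had IGHV1-9, 3.31% (2.73 to 3.98), as had 56 of 2947 Cre- cells, 1.90% (1.44 to 2.46). The difference was 1.41 percentage points (0.599 to 2.22) and the ratio 1.74, or 0.80 on the log2 scale. Its interval treats the cells of the IGHJ2 IgG1 lineage as independent, which cells of a single lineage are not. Without the 27 IGHJ2 IgG1 cells the Cre+ share was 2.51% (82 of 3267, 2.0 to 3.11), against 1.90% in Cre-. The difference of 0.610 points (-0.148 to 1.36) and the ratio of 1.32 then lay within counting error. IGHV4-1 made up 14.8% of Cre- cells and 0.789% of Cre+ cells, which lowers the Cre- share of other genes. With each lineage and isotype also counted once, the shares without the IGHJ2 IgG1 cells were 2.60% in Cre+ (81 of 3120) and 2.22% in Cre- (55 of 2478). Among unswitched cells alone the shares were 2.65% in Cre+ (77 of 2911) and 2.21% in Cre- (50 of 2265), a difference of 0.438 points (-0.448 to 1.30).

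The same shares were computed for every V gene with at least 20 cells over both libraries, and a gene was called higher in Cre+ where its ratio was at least 1.5 and the intervals did not overlap. Over all cells 3 of 64 genes (4.69%) were called, IGHV1-9 among them, and its ratio ranked 8. Without the IGHJ2 IgG1 cells 2 of 64 (3.12%) were called and IGHV1-9 was not. In unswitched cells 0 of 61 (0%) were called. By share, IGHV1-9 ranked 4 in Cre+ and 16 in Cre- over all cells, 8 in Cre+ and 16 in Cre- without the IgG1 cells, and 7 in Cre+ and 15 in Cre- among unswitched cells.

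**Figure D2:**
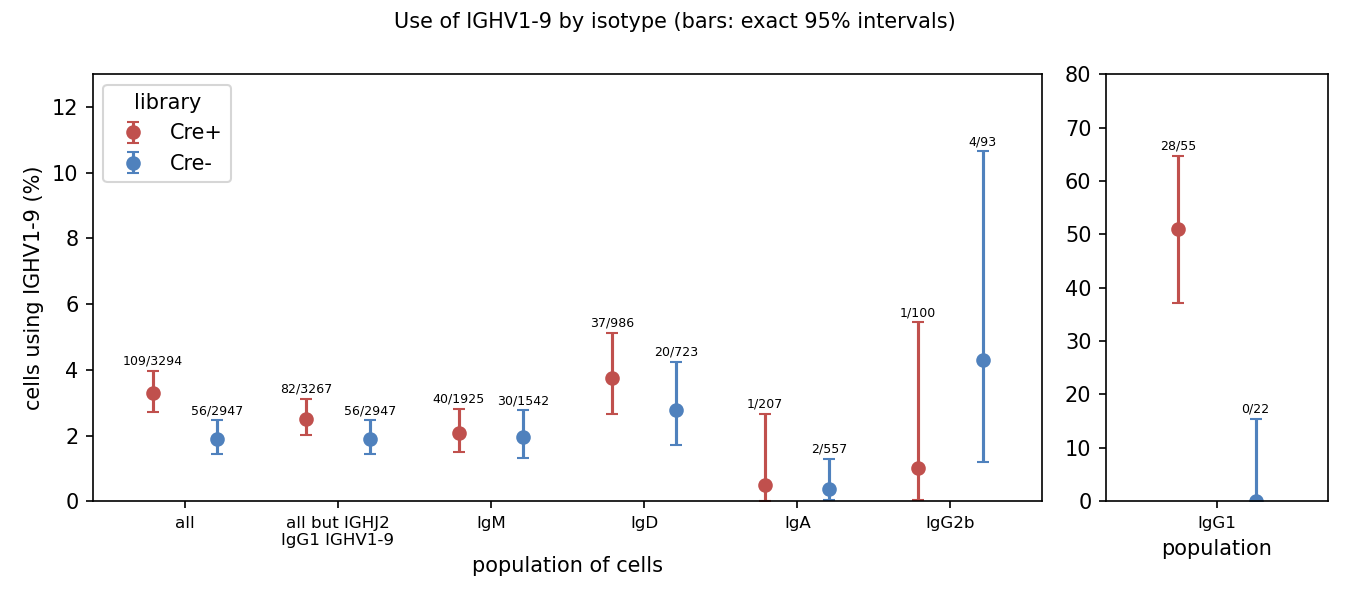
Share of cells using IGHV1-9 (percent, y axis) in Cre+ (red) and Cre- (blue), in all cells, without the IGHJ2 IgG1 IGHV1-9 cells, and by constant gene, with exact 95% intervals and cell counts. IgG1 cells have an axis of their own: 28 of 55 Cre+ cells and 0 of 22 Cre- cells used IGHV1-9. Of those 28 cells, 27 belong to a single lineage.

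By isotype, the libraries were close in IgM cells, where 2.08% of Cre+ (40 of 1925) and 1.95% of Cre- (30 of 1542) used IGHV1-9. In IgD cells the shares were 3.75% in Cre+ (37 of 986) and 2.77% in Cre- (20 of 723). Of IgA cells, the main switched class of Peyer's patches, IGHV1-9 made up 0.483% in Cre+ (1 of 207) and 0.359% in Cre- (2 of 557). Most Cre- IgA cells came from the largest lineage of that library. Without the largest lineage of each library, other V genes had 153 IgA cells in Cre+ and 139 in Cre-. The denominators of the IgA shares are therefore unlike. Of IgG1 cells IGHV1-9 made up 50.9% in Cre+ (28 of 55, 37.1 to 64.7), against 0 of 22 in Cre- (0 to 15.4), where a count of 3 would make 13.6%. Of those 28 cells, 27 belong to a single lineage, on which the gene was selected. The Cre+ interval treats them as independent, so it does not measure the precision of this share. Of IgG2b cells IGHV1-9 made up 1.0% in Cre+ (1 of 100) and 4.30% in Cre- (4 of 93, 1.18 to 10.7). Over all switched classes the shares were 8.22% in Cre+ (30 of 365) and 0.893% in Cre- (6 of 672). Without the lineage's IgG1 cells the Cre+ share was 0.888% (3 of 338). These switched shares also count the largest lineage of each library. With it left out, other V genes had 281 switched cells in Cre+ and 250 in Cre-.

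The lineage held 26.6% of the IGHV1-9 cells of the Cre+ library, against 3.57% for the largest in the Cre- library. Among V genes with at least 20 cells in a library, that placed IGHV1-9 at rank 2 of 53 in Cre+, where the median gene had 3.70% and IGHV5-17 was highest with 47.1%. In Cre- it ranked 31 of 48, where the median was 4.17% and IGHV4-1 was highest with 95.6%. V genes with a lineage larger than this share of their cells were thus present in both libraries.

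Outside the lineage, IGHV1-9 was a gene of scattered cells. The 165 cells made 135 lineages, 80 in Cre+ and 55 in Cre-, and only 3 had 2 or more cells. The lineage of 29 is the first of them. A Cre+ pair with IGHJ3 and the CDR3 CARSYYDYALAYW in its first form joined an IgM cell with 2 heavy-chain UMIs and an IgD cell with 14. The cells differed in CDR3 nucleotides and carried different light chains, IGKV1-135 and IGKV4-59 (in no set order). A Cre- pair of IgA cells shared every base of the CDR3 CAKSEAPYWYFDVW, assigned to IGHD5-8 and IGHJ1, and the light-chain V gene IGKV1-117 with the CDR3 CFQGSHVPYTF. Its heavy chain is shown because it is the only other IGHV1-9 lineage whose cells also agree in light chain.
Cre- IgA pair: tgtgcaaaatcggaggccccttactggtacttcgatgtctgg

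The IgA cells of that pair had 43 and 77 heavy-chain UMIs and 173 and 249 light-chain UMIs, all above the median of other IGHV1-9 cells. No heavy-chain CDR3 amino acid sequence of IGHV1-9 occurred in both libraries. The cells held 84 distinct CDR3 nucleotide sequences in Cre+ and 55 in Cre-. The overlap was not counted for other V genes, so whether its absence is usual for a V gene was not tested.

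Other IGHV1-9 cells with a constant gene called were switched in 3 of 80 cases in Cre+, 3.75% (0.780 to 10.6), and in 6 of 56 in Cre-, 10.7% (4.04 to 21.9), a difference of -6.96 points (-18.5 to 2.58). The cells kept apart were all switched and all from Cre+, so the selection itself lowers the Cre+ share. Cells of other V genes, without the largest lineage of each library, were switched in 9.04% in Cre+ and 10.1% in Cre-. The 3 Cre+ cells were an IgA cell with the CDR3 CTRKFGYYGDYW and 7 heavy-chain UMIs, an IgG1 cell of IGHJ4 with 37, and an IgG2b cell of IGHJ2 with 5. That IgG1 cell, which used IGHD1-1 and the light-chain gene IGKV16-104, was the only IGHV1-9 IgG1 cell outside the lineage. The 6 Cre- cells were the IgA pair and 4 unrelated IgG2b cells, among them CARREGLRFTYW with 16 heavy-chain UMIs, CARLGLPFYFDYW with 23 and CARNRYW with 4. The remaining IgG2b cell, whose CDR3 had 20 residues, had 96.

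**Figure D3:**
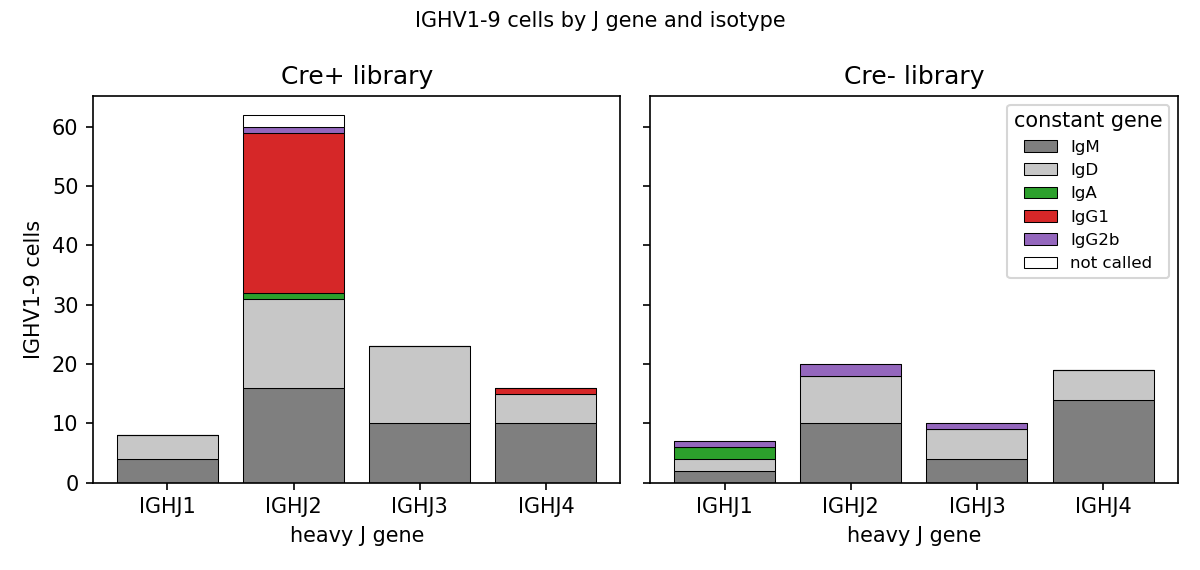
Number of IGHV1-9 cells by heavy J gene (x axis) and constant gene (colours) in the Cre+ library (left) and the Cre- library (right). IgG1 is found with IGHJ2 (27 cells) and IGHJ4 (1 cell) in Cre+ and with no J gene in Cre-.

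IgM was called in 50.0% of the other IGHV1-9 cells in Cre+ and in 53.6% in Cre-. IgD, made from the same long transcript as IgM by alternative splicing, was called in 46.3% in Cre+ (37 of 80) and 35.7% in Cre- (20 of 56). In Cre+ the IgD share lay above that of other V genes, 30.5%, by 15.7 points (4.40 to 27.4). In Cre- the distance from the 28.5% of other V genes was 7.20 points (-5.29 to 21.2). Among 42 V genes with at least 20 unswitched cells in each library, the IgD share of unswitched IGHV1-9 cells ranked 2 in Cre+, with 48.1% beside a median gene of 34.8%, and 7 in Cre-, with 40.0% beside 31.1%. This comparison and that of the CDR3 start below were chosen after their values were seen.

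The J genes of the other IGHV1-9 cells in Cre+ were IGHJ1 in 9.76%, IGHJ2 in 42.7%, IGHJ3 in 28.1% and IGHJ4 in 19.5%. In Cre- they were IGHJ1 in 12.5%, IGHJ2 in 35.7%, IGHJ3 in 17.9% and IGHJ4 in 33.9%. The most distant of these was IGHJ4, with a difference of -14.4 points in Cre+ minus Cre- (-30.4 to 1.44), an interval that includes no difference. Other V genes used IGHJ4 in 23.9% in Cre+ and 24.4% in Cre-. Unswitched IGHV1-9 cells of the Cre- library had more IGHJ4, 38.0%, than unswitched cells of the rest of the IGHV1 family, 22.5%, by 15.6 points (2.0 to 30.5). Against unswitched cells of all other V genes the distance in Cre- was 13.4 points (-0.0819 to 28.3), and over all cells 9.52 points (-2.73 to 23.5). In Cre+ it was -4.10, -4.73 and -4.39 points in the same comparisons, with intervals that include 0.

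Outside the IgG1 group 76 of 82 Cre+ cells had a D gene called, as had 51 of 56 Cre- cells. IGHD1-1, the D gene of the lineage, was found in 27.6% in Cre+ (21 of 76, with the 2 lineage cells that have no constant gene called) and 37.3% in Cre- (19 of 51), a difference of -9.62 points (-27.2 to 7.80). The genes of the IGHD2 family together made up 43.4% in Cre+ and 43.1% in Cre-. Other V genes, without the largest lineage of each library, had IGHD1-1 in 36.0% in Cre+ and 35.4% in Cre-. Their IGHD2 family shares were 40.2% in Cre+ and 44.3% in Cre-. Among other D genes, IGHD2-4 was found in 13 Cre+ and 6 Cre- cells, IGHD4-1 in 10 Cre+ and 5 Cre- cells, IGHD2-6 in 9 Cre+ and 5 Cre- cells, and IGHD3-2 in 7 Cre+ and 2 Cre- cells. IGHD2-8 was found in 5 Cre+ and 6 Cre- cells and IGHD2-3 in 3 Cre+ and 4 Cre- cells. The CDR3 held the residues YGS in 11 of 21 IGHD1-1 cells in Cre+ and 11 of 19 in Cre-. The 21 include the 2 lineage cells, which lack YGS. Of the IGHD1-1 cells of other V genes, 51.75% in Cre+ and 48.25% in Cre- held YGS. The lineage's CDR3 has YGG instead, a single observation because its cells share 1 rearrangement.

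Apart from the IGHJ2 IgG1 cells, most IGHV1-9 CDR3s opened with the residues CAR, 87.8% in Cre+ and 89.3% in Cre-. The next residue was arginine more often than in other genes. CARR opened the CDR3 of 18 of 82 Cre+ cells, 22% (13.6 to 32.5), and of 10 of 56 Cre- cells, 17.9% (8.91 to 30.4). Other V genes had it in 7.40% in Cre+ and 7.19% in Cre-, so IGHV1-9 lay 14.6 points higher in Cre+ (6.10 to 25.1) and 10.7 points higher in Cre- (1.65 to 23.2). Set against the rest of the IGHV1 family, in unswitched cells, the distance was 14.1 points in Cre+ (5.36 to 25.1) and 7.93 points in Cre- (-1.04 to 21.1). Among the 42 V genes with at least 20 unswitched cells in each library, IGHV1-9 ranked 2 in Cre+ and 6 in Cre-, with IGHV8-12 highest at 54.2% in Cre+ and 47.2% in Cre-. The lineage has proline at that residue, and its 2 cells with no constant gene called are among the 82 and not among the 18.

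These are some of 84 comparisons between other IGHV1-9 cells and cells of other V genes, over 16 quantities, 2 libraries and up to 3 sets of cells. The interval left out 0 in 20 of them, with no adjustment for their number. Against all other V genes and in both libraries it did so only for the opening residues CAR and CARR.

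The CDR3 of the other IGHV1-9 cells had a median length of 13 residues in Cre+ (quartiles 11.25 and 15) and 15 in Cre- (13 and 16), beside 14 in other V genes of both libraries. By J gene, the median was 13.5 in Cre+ and 14 in Cre- for IGHJ1, 13 in Cre+ and 13.5 in Cre- for IGHJ2, 13 in Cre+ and 15 in Cre- for IGHJ3, and 15 in Cre+ and 16 in Cre- for IGHJ4. The ranges, 7 to 21 residues in Cre+ and 7 to 20 in Cre-, overlapped almost wholly, and the 14 residues of the lineage lay in their middle.

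**Figure D4:**
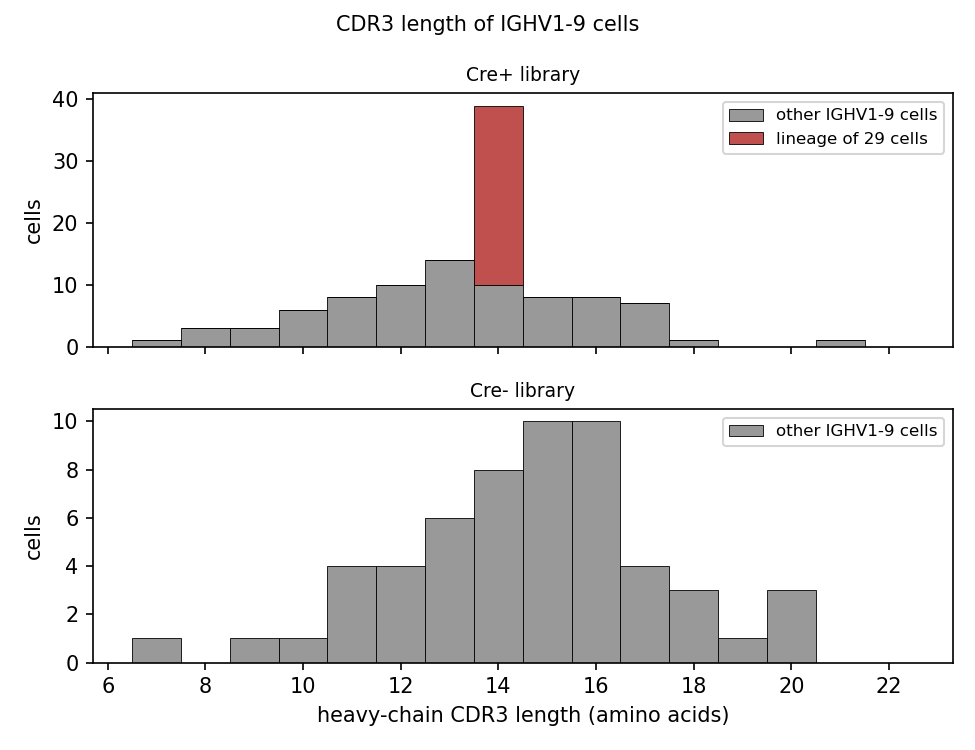
Number of IGHV1-9 cells (y axis, scales differ) by length of the heavy-chain CDR3 in amino acids, in the Cre+ library (top) and the Cre- library (bottom), with the 29 lineage cells in red at 14 residues. The grey cells have medians of 13 in Cre+ and 15 in Cre-; the grey Cre+ bars leave out the 2 lineage cells with no constant gene called.

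Mismatches in the J part of the CDR3 were found in 27.3% of unswitched IGHV1-9 cells in Cre+ (21 of 77, 17.7 to 38.6) and 12% in Cre- (6 of 50, 4.53 to 24.3), a difference of 15.3 points (-0.297 to 28.9). The remaining IGHV1 family had 16.2% in Cre+ and 17.5% in Cre-, which IGHV1-9 exceeded in Cre+ by 11.1 points (1.37 to 22.6) and not in Cre- (-5.46 points, -13.2 to 7.01). A cell counted as mismatched where any of the 9 bases before the last CDR3 codon departed from the most common sequence of its J gene in unswitched cells, and J genes differ in this measure. Within IGHJ3 the IGHV1-9 share was 39.1% in Cre+ (9 of 23) and 11.1% in Cre- (1 of 9), beside 13.5% in Cre+ and 17.3% in Cre- for the rest of the family. Within IGHJ2 the IGHV1-9 share was 35.5% in Cre+ (11 of 31) and 16.7% in Cre- (3 of 18), beside 30.6% in Cre+ and 31.9% in Cre- for the rest of the family. Within IGHJ4 it was found in 0 of 15 Cre+ and 1 of 19 Cre- cells, and within IGHJ1 in 1 of 8 Cre+ and 1 of 4 Cre- cells.

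The light chains of the other IGHV1-9 cells were spread over 38 V genes in 81 Cre+ cells and 32 V genes in 55 Cre- cells. IGKV10-96 was the most frequent, with 5 Cre+ and 6 Cre- cells, followed by IGKV9-120 with 5 Cre+ and 3 Cre- cells, IGKV1-117 with 3 Cre+ and 4 Cre- cells, and IGKV12-46 with 4 Cre+ and 2 Cre- cells. Of the genes tied at 5 cells, IGKV1-135 and IGKV4-57 had 5 Cre+ and 0 Cre- cells each, and IGKV2-137 and IGKV4-59 had 3 Cre+ and 2 Cre- cells each. IGKV9-120 made up 6.17% of light chains in Cre+ and 5.45% in Cre-, on few cells. With other V genes its shares were 2.26% in Cre+ and 2.46% in Cre-. IGKV1-117 lay below its share with other V genes in Cre+, 3.70% against 4.98%, and above it in Cre-, 7.27% against 3.89%. IGKV4-57 made up 6.17% against 1.26% in Cre+, and 0% against 1.11% in Cre-. Naming genes by their number of IGHV1-9 cells favours shares above those with other V genes. Lambda light chains were found in 3.70% in Cre+ (3 of 81) and 5.45% in Cre- (3 of 55). With other V genes they made up 4.72% in Cre+ and 4.88% in Cre-. IGKV1-110, the lineage's light-chain gene, was found in 1 IGHV1-9 cell of each library outside the lineage.

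The other IGHV1-9 cells had a median of 9 heavy-chain UMIs in both libraries, with a range of 2 to 96 in Cre+ and 1 to 96 in Cre-. Their light chains had a median of 25 UMIs in Cre+ and 41 in Cre-. A few unswitched cells reached the level of the strongest switched ones: a Cre+ IgM cell with the CDR3 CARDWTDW had 96 heavy-chain and 108 light-chain UMIs, a Cre+ IgD cell with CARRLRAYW had 65 and 117, and a Cre- IgM cell with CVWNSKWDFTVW had 59 and 154. The IGHJ2 IgG1 cells lay above the other Cre+ cells in the median, 15 against 9, and the ranges overlapped.

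**Figure D5:**
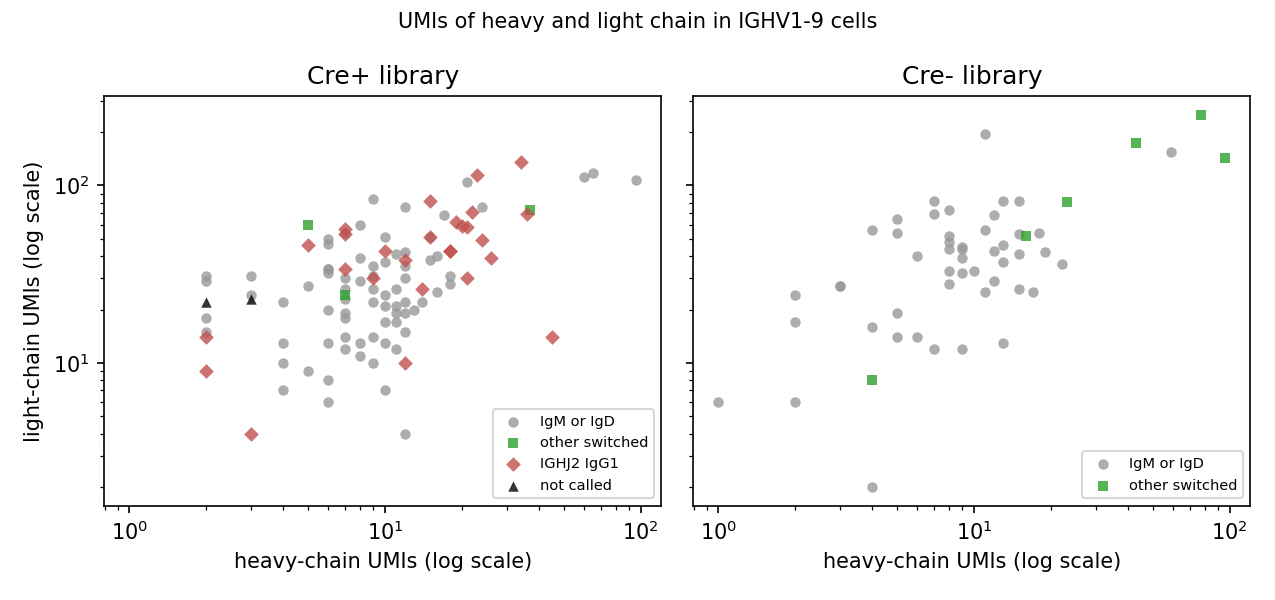
Heavy-chain UMIs (x axis) against light-chain UMIs (y axis) of IGHV1-9 cells with a light chain, on log axes, in the Cre+ library (left) and the Cre- library (right), by class of cell. The IGHJ2 IgG1 cells (red) span 2 to 45 heavy-chain UMIs and lie among the IgM and IgD cells (grey).

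By the shares of IgM, IgD, IgA, IgG1 and other classes in the 2 libraries, 45 V genes were compared with IGHV1-9. Over all cells the nearest were IGHV1-59 at an average distance of 14.1 percentage points, IGHV5-4 at 14.6 and IGHV1-12 at 16.0. Without the IGHJ2 IgG1 cells the nearest were IGHV5-4 at 5.90 points, IGHV1-80 at 6.52 and IGHV1-64 at 8.06. IGHV5-4 was among the 3 nearest in both. The distance counts the IgG1 share, and the 27 cells left out were chosen as IgG1. The distance to IGHV1-12 was larger without them, 22.8 points. How much of the smaller distances to the other genes named follows from that choice was not tested.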

How the data were processed

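Single-cell B cell receptor libraries of 2 genotypes, 1 library each, were made with 10x Genomics 5' V(D)J chemistry. Per the submitters' processing notes, Cell Ranger and the GRCm38 build were used; the sources used here do not give the version. The deposited contig tables give, per the file headers, the V, D, J and constant gene, the CDR3 and the counts of reads and UMIs of each contig; counts were not normalised. All deposited contigs were flagged as cells and high confidence. Clonotype counts of barcodes were also deposited.

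Barcodes with several productive heavy chains were left out of cells; no doublet caller was run. Genotype groups were taken from the sample labels. Shares carry exact Clopper-Pearson intervals (scipy 1.17.1), and intervals of a difference combine the bounds of both shares. With 1 library per genotype no test was made. Tables were handled with Python 3.11.15 and pandas 2.3.3. Scripts were tested on simulated data.

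Named were all J and constant genes, D genes with 5 or more cells, the 6 most frequent light V genes with ties, lineages of 2 or more cells, all CDR3 forms of the IGHJ2 IgG1 cells and the 3 V genes nearest in isotype. Other items were chosen after their values were seen. The gene, its cell groups and the lists were chosen with earlier results of these data known. Alternatives covered the choice of cells, a minimum of 3 UMIs, counting lineages once, unswitched cells, light-chain presence, the definition of the lineage and the J length.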

Additional observations from a re-analysis of the deposited data

Results flagged for a closer look

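Barcodes left out of the cells also held the lineage's chains, in the Cre+ library alone. Its heavy-chain CDR3 occurred in 6 barcodes with 2 or more heavy chains, against 0 in Cre-. All 6 copies were IgG1, with 2 to 25 UMIs (median 9) beside 3 to 30 UMIs (median 7.5) of the other heavy chain, and 5 of the 6 barcodes held the lineage's light chain. The other chain was IgM or IgD in 4, and in 1 it was another IGHV1-9 chain, IgM with 30 UMIs. Those 6 were 17.1% of the 35 barcodes with the lineage chain (6.56 to 33.7), beside 6.98% of other IGHV1-9 barcodes in Cre+ (6 of 86) and 12.5% in Cre- (8 of 64), and 4.22% of every Cre+ barcode with a heavy chain and 2.74% in Cre-. The shares of every barcode are not like for like with the others. A barcode with 2 heavy chains counts once in them, but can count under either chain where a given chain is followed. Its light-chain CDR3 occurred in 3 Cre+ barcodes with no productive heavy chain, with 20, 6 and 7 light-chain UMIs, and in 2 that held only another heavy chain, against 0 in Cre-. Whether these barcodes hold more than 1 cell or stray RNA was not tested.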

How the results depend on the processing

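For 21 results, 117 values were recomputed under other settings; 8 left the interval or quartiles of the reported value. The number of IGHJ2 IgG1 cells, a count with no interval, was 25 to 30 in Cre+, against 27 reported, and 0 in Cre- under each setting. The Cre+ share of IGHV1-9 was 2.63% with each lineage and isotype counted once, against 2.22% in Cre-, and 2.65% in unswitched cells only. The share of other Cre+ cells in lineages of 2 or more was 4.88% as reported. It was 1.30% with a minimum of 3 UMIs and 18.3% when lineages were linked at 80% identity. In Cre- it was 3.57% as reported and 0% in unswitched cells only, where the IgA pair is left out. J mismatches in Cre+ were 10.4% over 6 bases and 53.3% over 12 bases, and in Cre- 32.0% over 12 bases; the longer windows reach bases nearer the D to J join. No paired analysis was possible because each genotype has 1 library. Few cells limit precision: 3 other switched cells in Cre+ and 6 in Cre- leave wide intervals.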
